A study of Mus musculus with 200 samples.

Results

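The keratin genes were described across 200 single medullary thymic epithelial cells of the mouse. The members were every gene of the count table whose symbol is Krt followed by a digit, a rule that uses no measured value. It gave 51 of 38406 genes, of which 38 had a count in some cell, 27 had at least 20 counts and 13 were at 0 in all 200 cells.

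The cells were isolated from thymi of female mice of the mixed B6xNOD background at 5 weeks of age. Each mouse, controls included, carried AireGFP, a transgene that marks cells with an active Aire gene, and was either Aire knockout (KO) or Aire wild type (WT). Live cells negative for CD45 and Ly51 and positive for MHC class II and GFP were sorted singly at high (GFPhi) or low (GFPlo) GFP. There were 48 KO GFPhi, 61 WT GFPhi, 52 KO GFPlo and 39 WT GFPlo cells. The labels name no animal, so each group was treated as a single sample, without tests. Differences among animals and among groups cannot be told apart.

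Levels are given as counts per 1000000 (CPM) of the summed counts of a group. Group sums were 3011900 counts in KO GFPhi, 3468109 in WT GFPhi, 1847240 in KO GFPlo and 2260672 in WT GFPlo, with 2429 to 370365 counts per cell. Bracketed ranges are 95% intervals for counting error of sequenced tags alone. Sorting took place on 2 dates, with 39, 38, 30 and 21 cells of the 4 groups on the second date and 9, 23, 22 and 18 on the first. Aire itself stood at 815 CPM in KO GFPhi and 537 CPM in WT GFPhi, and at 316 CPM in KO GFPlo and 244 CPM in WT GFPlo, and these tags, whose place relative to the deletion is not given in the sources used here, do not check the genotype labels.

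Keratins build the intermediate filaments of epithelial cells from obligate pairs of an acidic type I and a basic type II chain. Simple epithelia use mainly Krt8 with Krt18, the basal layer of stratified epithelia uses Krt5 with Krt14, and the cells above it switch to other pairs. In the thymus, Krt5 and Krt14 are used as markers of the medulla and Krt8 with Krt18 of the cortex, while some medullary cells carry keratins of terminally differentiated skin.

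The genes lie in a type I cluster on chromosome 11 and a type II cluster on chromosome 15, which held 27 and 24 of the 51 members. Krt18 is a type I gene placed in the cluster on chromosome 15 (chr15:102028180-102032027, plus strand, mm10), next to its partner Krt8 (chr15:101996698-102004482, minus strand). Krt5 lies at chr15:101707070-101712898 and Krt7 at chr15:101411043-101430313, while Krt14 (chr11:100203162-100207548) and Krt17 (chr11:100256217-100261029) lie close together on chromosome 11, with Krt16 between them. RefSeq promoter windows on GRCm38.p6, which run from 250 bases before to 50 after a start, were at hand for 35 of the 51 genes. The windows of the simple pair Krt8 and Krt18, of basal Krt5 and of suprabasal Krt10 are shown because these genes behaved differently across cells. Their positions are chr15:102004293-102004592 (minus strand), chr15:102027966-102028265 (plus strand), chr15:101712856-101713155 (minus strand) and chr11:99389315-99389614 (minus strand). Capitals mark every match, on either strand, to any of 4 motifs. These were TATAAA, the TATA box, the AP-2 motif GCCNNNGGC, the GC box and the AP-1 motif. The GC box was searched as GGGCGG. The AP-1 motif was searched as TGANTCA. The capitals in Krt8 are TATAAA at bases 250 to 255 of its window, overlapped by its reverse complement at bases 248 to 253. They lie across the window's start and not upstream of it, so they were not read as a TATA box for that start. That start itself lies inside the Krt8 gene span given above. The capitals in Krt10 are bases 225 to 230 of its window, upstream of the start.
Krt8: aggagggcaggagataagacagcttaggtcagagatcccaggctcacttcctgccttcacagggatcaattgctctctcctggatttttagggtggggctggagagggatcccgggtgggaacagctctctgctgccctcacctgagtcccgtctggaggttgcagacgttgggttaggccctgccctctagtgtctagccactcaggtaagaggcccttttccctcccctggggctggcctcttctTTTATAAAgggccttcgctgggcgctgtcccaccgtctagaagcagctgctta
Krt18: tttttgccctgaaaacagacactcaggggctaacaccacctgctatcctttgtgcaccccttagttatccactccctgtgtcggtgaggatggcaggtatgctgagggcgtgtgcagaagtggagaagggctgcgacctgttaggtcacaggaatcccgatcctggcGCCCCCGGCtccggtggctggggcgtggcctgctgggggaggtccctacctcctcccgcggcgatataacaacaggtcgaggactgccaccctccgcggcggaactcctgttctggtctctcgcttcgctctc
Krt5: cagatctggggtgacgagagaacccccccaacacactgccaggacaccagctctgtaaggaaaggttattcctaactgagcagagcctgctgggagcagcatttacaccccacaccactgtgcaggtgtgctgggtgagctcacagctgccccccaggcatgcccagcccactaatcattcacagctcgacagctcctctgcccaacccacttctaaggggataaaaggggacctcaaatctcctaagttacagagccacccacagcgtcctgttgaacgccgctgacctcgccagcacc
Krt10: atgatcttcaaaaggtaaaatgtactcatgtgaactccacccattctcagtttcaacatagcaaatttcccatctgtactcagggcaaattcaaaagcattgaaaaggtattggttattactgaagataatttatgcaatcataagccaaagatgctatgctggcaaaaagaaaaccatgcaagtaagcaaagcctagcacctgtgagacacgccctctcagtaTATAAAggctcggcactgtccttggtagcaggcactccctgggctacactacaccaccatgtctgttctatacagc
Of the 36 keratin windows, which belong to those 35 genes, 19 (52.8%) held TATAAA, against 13.6% of all 32817 windows of that length. The GC box was found in 2 of the 36 (5.56%), against 35.6% of all windows. The AP-1 letters were in 2 (5.56%, against 7.81%) and the AP-2 letters in 6 (16.7%, against 16.6%). The Krt5 window held none of the 4 motifs, and the Krt18 window held the AP-2 letters alone. These matches are letters in a window and were not tested as binding sites.

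At least 1 keratin was counted in each of the 200 cells, but the medullary markers Krt5 and Krt14 were not counted in all of them. Krt8 was counted in 195 of the 200 cells, Krt17 in 184, Krt18 in 178, Krt14 in 130, Krt7 in 114 and Krt5 in 92. Per kilobase of exon, the scale on which levels of different genes are compared here, Krt8 had 7332 counts over all cells, Krt17 6934, Krt18 4461, Krt14 1599 and Krt5 1135. Krt5 and Krt14, the markers of the medulla, were thus present but, on that scale, below Krt8 and Krt18, and Krt5 was absent from the counts of 108 cells. Of those 92 cells with Krt5, 90 also had Krt8. These 6 genes held 83.4% of all 46263 keratin counts. Krt8 was the keratin with the most counts in 97 cells, Krt17 in 60 and Krt18 in 16.

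The other keratins formed a sparse mosaic. Of the 27 members with at least 20 counts, the 21 beyond these 6 were each counted in 7 to 51 cells of the 200. A single cell held 89.3% of the counts of Krt13, 79.1% of Krt10, 69.6% of Krt23, 51.1% of Krt78 and 50.9% of Krt15. For Krt8, Krt17 and Krt7 the highest cell held 4.05%, 4.81% and 7.53%. Many other cells had very few tags, for Krt10 1 or 2 counts in 18 of its 34 cells and for Krt71 in 12 of its 16.

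**Figure D1:**
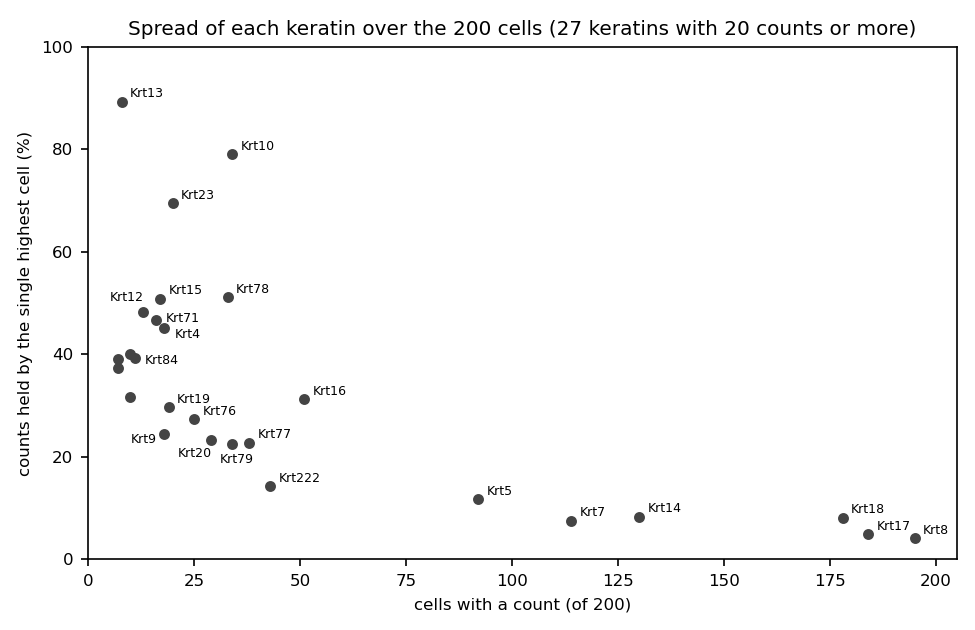
Each point is 1 of the 27 keratins with at least 20 counts, by the number of the 200 cells with a count (horizontal axis) and the share of its counts in its single highest cell (vertical axis, percent). Names are given from 100 counts upward. The 6 widely detected keratins lie at the lower right, from 92 to 195 cells, and Krt13, Krt10 and Krt23 at the upper left.

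Among the simple keratins, Krt8 and Krt18 were higher in KO than in WT at high GFP. Krt8, the type II chain of simple epithelia, had 1766 CPM (1719–1814) in KO GFPhi and 1168 CPM (1132–1204) in WT GFPhi, and 952 CPM (908–997) in KO GFPlo and 1428 CPM (1379–1478) in WT GFPlo. Cell by cell, the lowest, median and highest levels of Krt8 were 216, 1524 and 5897 CPM in KO GFPhi, 20.2, 1129 and 3310.0 in WT GFPhi, 0, 777 and 4215 in KO GFPlo, and 0, 1266 and 4774 in WT GFPlo. The cells of the 4 groups overlapped over most of their range.

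Krt18, the partner of Krt8, had 766 CPM (735–798) in KO GFPhi and 513 (489–537) in WT GFPhi, and 645 (609–682) in KO GFPlo and 502 (473–532) in WT GFPlo. The median cell had 425 CPM of Krt18 in KO GFPhi and 406 in WT GFPhi, and 379 in KO GFPlo and 302 in WT GFPlo, with highest cells at 2082, 2115, 3655 and 3194 CPM. At low GFP the pair thus differed in direction, with Krt8 lower and Krt18 higher in KO.

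Krt7, a type II chain of glandular and ductal epithelia, had 146 CPM (132–160.0) in KO GFPhi and 90.5 (80.8–101) in WT GFPhi, and 195 (175–216) in KO GFPlo and 284 (262–306) in WT GFPlo. Its median cell was at 31.5 CPM in KO GFPhi and 0 in WT GFPhi, and at 40.98 in KO GFPlo and 69.8 in WT GFPlo. Krt20, a type I chain of intestinal epithelium and other differentiated simple epithelia, had 10.3 and 28.5 CPM in KO and WT GFPhi and 4.87 and 68.1 CPM in KO and WT GFPlo. Krt23, another type I chain, had 1 count in KO GFPhi and 242 counts (69.8 CPM) in WT GFPhi, of which 1 cell held 91.7%, and 8.66 CPM in KO GFPlo and 26.5 CPM in WT GFPlo. Krt19, a type I chain of ductal epithelium, was at 0 in all 48 KO GFPhi cells, which allows a level of up to 0.996 CPM, and had 82 counts in 14 WT GFPhi cells.

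Among the basal keratins, Krt5 varied most widely between groups of those in the leading 6. It had 199 CPM (183–215) in KO GFPhi and 40.7 CPM (34.2–47.9) in WT GFPhi, and 302 CPM (277–328) in KO GFPlo and 529 CPM (499.9–560.4) in WT GFPlo. Krt5 was counted in 20 of 48 KO GFPhi cells and 20 of 61 WT GFPhi cells, so the median cell was at 0 in both, with highest cells at 2445 and 1337 CPM. At low GFP, 27 of 52 KO cells and 25 of 39 WT cells had Krt5, with medians of 25.4 and 63.6 CPM and highest cells at 6019 and 3461 CPM.

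Krt14, the type I partner of Krt5, had 347 CPM (327–369) in KO GFPhi and 194 (179–209) in WT GFPhi, and 136 (119.6–154) in KO GFPlo and 372 (348–398) in WT GFPlo. The median cell had 88.3 CPM of Krt14 in KO GFPhi and 65.8 in WT GFPhi, and 0 in KO GFPlo and 172 in WT GFPlo. Krt15, which replaces Krt14 in part of the basal layer and in hair follicle stem cells, was rare, with 13.6 CPM in KO GFPhi and 73.0 in WT GFPhi, and 23.8 in KO GFPlo and 0.885 in WT GFPlo. Krt15 was counted in 3, 6, 6 and 2 cells of these groups.

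Of the keratins of stress and wound repair, Krt17 was abundant and Krt16 sparse. Krt17 had 1243 CPM (1204–1284) in KO GFPhi and 764 (735–794) in WT GFPhi, and 717 (679–757) in KO GFPlo and 1343 (1296–1392) in WT GFPlo. Its median cell was at 815 CPM in KO GFPhi and 480.5 in WT GFPhi, and at 348 in KO GFPlo and 817 in WT GFPlo. Krt16 had 7.97 CPM in KO GFPhi and 77.3 in WT GFPhi, and 36.8 in KO GFPlo and 211 in WT GFPlo. All 51 cells with Krt16 also had Krt17, and 41 of them had Krt14. The genes for Krt14, Krt16, Krt17 and Krt42 are close in sequence, and whether tags were divided between them is not stated in the sources used here, so their split is uncertain.

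**Figure D2:**
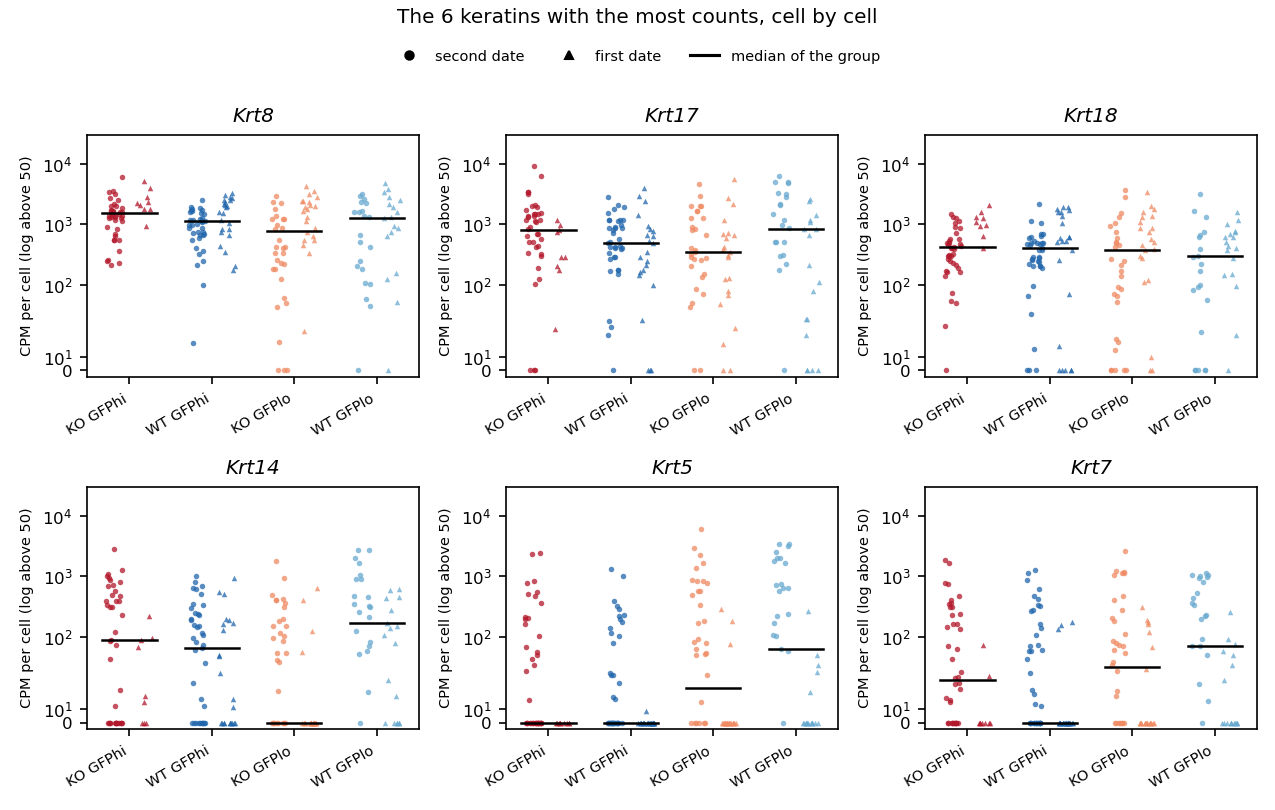
CPM per cell of the 6 keratins with the most counts (vertical axis, linear below 50 and logarithmic above) in the 4 groups; circles are cells of the second sort date, triangles of the first, and bars are group medians. Krt8, Krt17 and Krt18 were counted in most cells of each group, while the median of Krt5 was 0 in both GFPhi groups.

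Keratins of the suprabasal epidermis were carried by few cells. Krt10, the type I keratin of committed keratinocytes, had 13.9 CPM in KO GFPhi and 18.7 in WT GFPhi, and 53.1 in KO GFPlo and 497 in WT GFPlo. A single WT GFPlo cell at 27713 CPM held 93.5% of that last level, and Krt10 was counted in 8, 11, 11 and 4 cells of these groups. Krt1, the type II partner of Krt10, was at 0 in all 200 cells, and Krt2 had 1 count. Krt77, a type II keratin of the epidermis and sweat ducts, had 18.9 and 91.7 CPM in KO and WT GFPhi and 165 and 20.3 CPM in KO and WT GFPlo. Krt78, another type II keratin of stratified epithelia, had 18.6 and 36.6 CPM in KO and WT GFPhi and 265 and 35.4 CPM in KO and WT GFPlo. In KO GFPlo, 1 cell held 78.6% of the Krt78 counts and 1 cell held 54.3% of the Krt77 counts.

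The keratins of the oral and oesophageal mucosa and the cornea were highest in WT GFPhi, in cells of the second sort date. Summed, this class had 43.8 CPM in KO GFPhi and 326 CPM in WT GFPhi, and 7.04 CPM in KO GFPlo and 43.3 CPM in WT GFPlo. Within dates, the class had 12.5 CPM in KO GFPhi and 469.7 CPM in WT GFPhi on the second, and 123 CPM in KO GFPhi and 43.7 CPM in WT GFPhi on the first, so its direction differed between dates. Krt4, the type II keratin of non-cornified mucosa, had 10 counts in 1 of 48 KO GFPhi cells and 498 counts (144 CPM) in 12 of 61 WT GFPhi cells. In KO GFPlo it had 2 counts in 1 cell, and in WT GFPlo 6 counts in 4 cells. Krt13, the partner of Krt4, had 5 counts in KO GFPhi and 322 counts in WT GFPhi, of which 93.8% were in 1 cell. Only 5 of the 18 cells with Krt4 had Krt13. Krt76, the type II keratin of the hard palate, had 17.6 and 75.0 CPM in KO and WT GFPhi and 0.541 and 36.3 CPM in KO and WT GFPlo. On the first date Krt76 had 43 counts in KO GFPhi and 0 in WT GFPhi, and on the second 10 and 260. Krt4 was lower in KO GFPhi on both dates, with 10 and 467 counts on the second and 0 and 31 on the first.

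The remaining classes were rarer still. Krt79, a type II keratin of the hair follicle and sebaceous duct, had 64.7 and 24.2 CPM in KO and WT GFPhi and 4.87 and 58.4 CPM in KO and WT GFPlo. Krt71, a type II keratin of the inner root sheath, had 1 count in KO GFPhi and 118 counts (34.02 CPM) in WT GFPhi, and 2 counts in KO GFPlo and 142 counts (62.8 CPM) in WT GFPlo. Krt84, a type II hair keratin, was at 0 in KO GFPhi and had 69 counts in WT GFPhi, while it had 66 counts in KO GFPlo and was at 0 in WT GFPlo. Krt222, a keratin-like gene of the chromosome 11 cluster, had 36.2 and 32.3 CPM in KO and WT GFPhi and 50.9 and 38.04 CPM in KO and WT GFPlo. The dates differed, with 0 counts in KO and 18 in WT GFPhi on the first and 109 and 94 on the second, and with 60 counts in KO and 0 in WT GFPlo on the first and 34 and 86 on the second. The 7 other members with at least 20 counts (Krt9, Krt12, Krt19, Krt33b, Krt42, Krt75 and Krt81) had 23 to 119 counts in all. Of the hair shaft keratins, Krt33b, Krt81 and Krt84 had at least 20 counts.

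**Figure D3:**
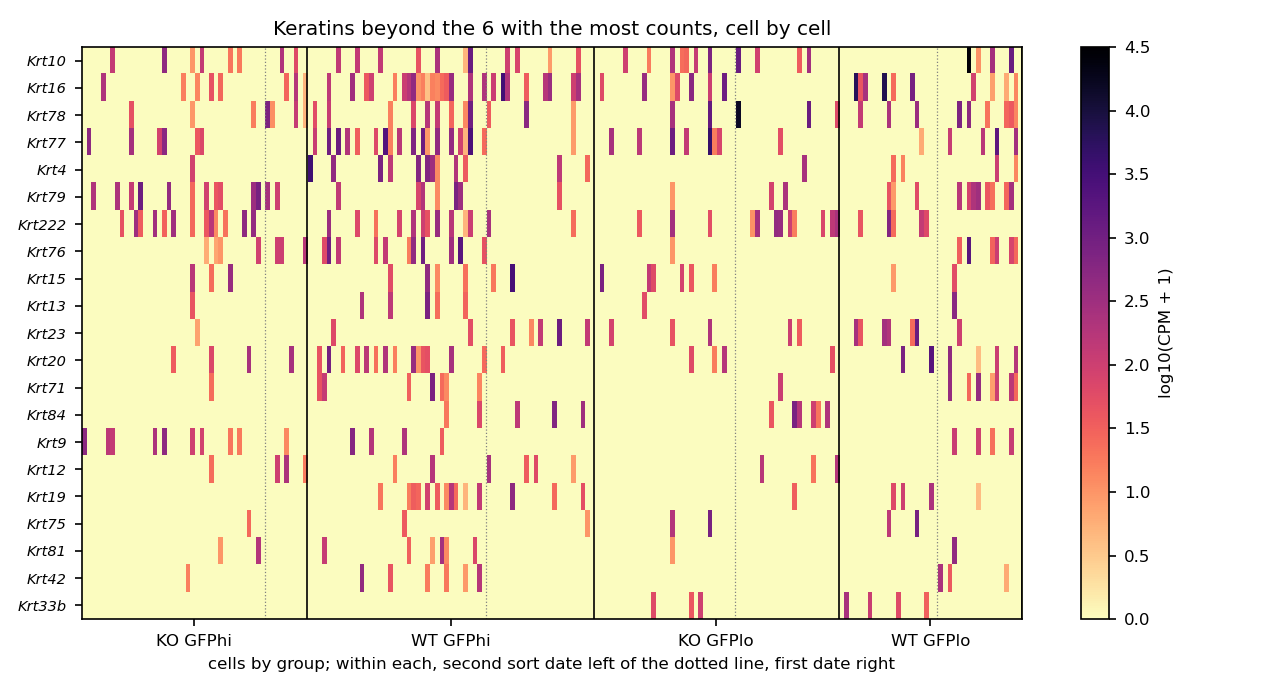
The 21 keratins beyond the leading 6 with at least 20 counts (1 line each) in each of the 200 cells (horizontal axis, by group; within a group the second sort date is left of the dotted line). Colour is log10(CPM + 1). Each of these keratins is at 0 in at least 149 of the 200 cells.

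Over both dates together, the mean number of rare keratins per cell was lower in KO than in WT in both gates at each depth tried. After thinning each cell to 10000 counts, which left 44, 55, 48 and 32 cells, keratins beyond the leading 6 numbered 1.18 per cell in KO GFPhi and 2.05 in WT GFPhi, and 1.10 in KO GFPlo and 1.75 in WT GFPlo. At least 1 of them was counted in 68.2% of KO GFPhi cells (95% exact binomial interval 52.4–81.4) and 85.5% of WT GFPhi cells (73.3–93.5), and in 62.5% of KO GFPlo (47.4–76.0) and 78.1% of WT GFPlo cells (60.03–90.7). These intervals overlap between genotypes in both gates. At 5000 counts per cell the means were 0.792 in KO GFPhi and 1.57 in WT GFPhi, and 0.824 in KO GFPlo and 1.18 in WT GFPlo, but the shares at low GFP were 54.9% in KO and 53.8% in WT. At 20000 counts the shares were 74.3% and 87.8% in KO and WT GFPhi and 73.3% and 95.8% in KO and WT GFPlo. Without thinning the shares were 87.5% and 93.4% in KO and WT GFPhi and 75.0% and 84.6% in KO and WT GFPlo. Split by date, the unthinned shares differed in direction. On the second date they were 87.2% in KO and 100% in WT GFPhi, and 66.7% in KO and 85.7% in WT GFPlo. On the first they were 88.9% in KO and 82.6% in WT GFPhi, and 86.4% in KO and 83.3% in WT GFPlo. The thinned means were not split by date. As a share of keratin counts, the members beyond the leading 6 made up 5.45% in KO GFPhi and 24.3% in WT GFPhi, and 19.1% in KO GFPlo and 20.1% in WT GFPlo.

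The first comparison asks how loss of Aire goes with keratin levels at high GFP. Over all cells, the 6 leading keratins were higher in KO GFPhi than in WT GFPhi, but Krt14, Krt17 and Krt7 were lower in KO on the first date alone. The ratios were 4.88 for Krt5 (4.06–5.91), 1.792 for Krt14 (1.63–1.98), 1.63 for Krt17 (1.55–1.71), 1.61 for Krt7 (1.39–1.87), 1.51 for Krt8 (1.45–1.58) and 1.49 for Krt18 (1.40–1.59). Within the 12 library pools, all of which held both groups, Krt8 and Krt18 were each higher in KO in 8 pools and lower in 4, Krt17 higher in 7 and lower in 5, Krt14 higher in 6 and lower in 5, Krt5 higher in 4 and lower in 3, and Krt7 higher in 4 and lower in 6, with the other pools equal. Summed keratins stood at 4724 CPM in KO and 3661 CPM in WT, a ratio of 1.29 (1.26–1.32). Summed epithelial markers other than keratins had a ratio of 1.08 (1.04–1.13), and the lists of medullary and cortical epithelial markers 1.34 and 1.44. Among the 25 members with at least 20 counts over both groups, 3 were at least 2-fold higher and 12 at least 2-fold lower. Of all 13564 genes with that many counts, 19.6% were at least 2-fold higher and 27.3% at least 2-fold lower. The median log2 ratio was −0.97 over the 25 keratins and −0.10 over all those genes.

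The 3 higher members were Krt5, Krt79 (2.67-fold, 2.06–3.49) and Krt9 (2.35-fold, 1.45–3.87), a type I keratin of palm and sole skin. Without all leukocyte-marked wells Krt79 was on the other side, with a log2 ratio of −0.84. Among the 12 lower members, Krt4 was 43.2-fold lower (23.3–90.7), Krt13 55.9-fold (23.7–173), Krt16 9.70-fold (6.38–15.4), Krt15 5.36-fold (3.84–7.65), Krt77 4.85-fold (3.65–6.54), Krt76 4.26-fold (3.16–5.84) and Krt20 2.77-fold (1.84–4.30). Krt84 was at least 19.97-fold and Krt19 at least 23.7-fold lower, with KO set at 3 counts per group. Krt23, Krt71 and Krt42 each had 1 count in KO, with ratios in KO over WT of 0.00476 (0.000120–0.0268), 0.00976 (0.000245–0.0554) and 0.0397 (0.000972–0.239). Since 1 cell held 93.8% of the WT counts of Krt13, 91.7% of Krt23 and 91.5% of Krt71, these ratios rest on single WT cells. Without all leukocyte-marked wells, Krt4, Krt13, Krt16, Krt20, Krt23, Krt71 and Krt84 had under 20 counts over both groups and gave no ratio. Their differences thus rest mostly on leukocyte-marked wells. Krt15, Krt76 and Krt77 stayed lower in KO there, with log2 ratios of −2.99, −7.47 and −2.47.

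At low GFP the direction of the leading keratins was the other way for all but Krt18. Krt14 stood at 0.365 of its WT level in KO GFPlo (0.316–0.421), Krt17 at 0.534 (0.5004–0.570), Krt5 at 0.569 (0.514–0.630), Krt8 at 0.666 (0.628–0.706) and Krt7 at 0.687 (0.602–0.783), while Krt18 was at 1.29 (1.18–1.40). Krt14 was lower in KO GFPlo in 11 of the 11 library pools that held both groups, Krt8 and Krt17 in 8 each, Krt5 and Krt7 in 7 each, and Krt18 in 3. Some of these pools held very few cells of a group. With ls primers alone Krt5 was on the other side (log2 ratio 0.47), and without all leukocyte-marked wells Krt7 was (0.31). Without those wells, the log2 ratios were −0.79 for Krt14 and −0.54 for Krt8. They were near 0 for Krt5 (−0.055), Krt17 (−0.039) and Krt18 (0.029). Summed keratins stood at 3643 CPM in KO and 5578 CPM in WT, a ratio of 0.653 (0.634–0.673). Summed epithelial markers other than keratins had a similar ratio of 0.675 (0.642–0.710), with 0.865 on the second date and 0.471 on the first. The list of cortical epithelial markers was at 0.453 and that of medullary ones at 1.43. Whether the keratin difference is part of a wider epithelial one was not tested. Among 22 members with at least 20 counts over both groups, 5 were at least 2-fold higher and 10 at least 2-fold lower, against 21.5% and 26.6% of all genes with that many counts. The median log2 ratio was −0.86 over these keratins and −0.07 over all genes.

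The higher members at low GFP were Krt15 (26.9-fold, 7.02–229, on 2 WT counts), Krt77 (8.09-fold, 5.92–11.3), Krt78 (7.50-fold, 5.91–9.62), Krt75, a keratin of the hair follicle companion layer (2.27-fold, 1.41–3.74), and Krt84 (at least 26.9-fold, with WT set at 3 counts). Among the lower ones, Krt10 was 9.37-fold lower (7.62–11.6), Krt20 13.98-fold (7.18–31.2), Krt79 11.98-fold (6.12–26.8), Krt16 5.74-fold (4.45–7.52) and Krt23 3.06-fold (1.74–5.70). Krt10 was on the other side, with a log2 ratio of 0.18, once the cell with the most Krt10 was left out of each group. Krt15, Krt23 and Krt84 had under 20 counts at low GFP without all leukocyte-marked wells and gave no ratio there. Krt16 and Krt20 were at least 2-fold lower in KO in both gates, and so were Krt19, Krt23, Krt71 and Krt76. At low GFP, Krt16 was higher in KO with ls primers alone (log2 ratio 2.97) and near 0 without all leukocyte-marked wells (−0.051). On the first date alone Krt76 was higher in KO at high GFP (6.90). Krt15, Krt77 and Krt84 were 2-fold lower in KO at high GFP and 2-fold higher in KO at low GFP. The shares of all genes that were lower in both gates, or that differed in direction between them, were not computed. These lists of shared and opposite members therefore have no background. The difference between the gates was not tested. Krt77 at low GFP stood lower in KO on the first date alone, with a log2 ratio of −4.24.

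**Figure D4:**
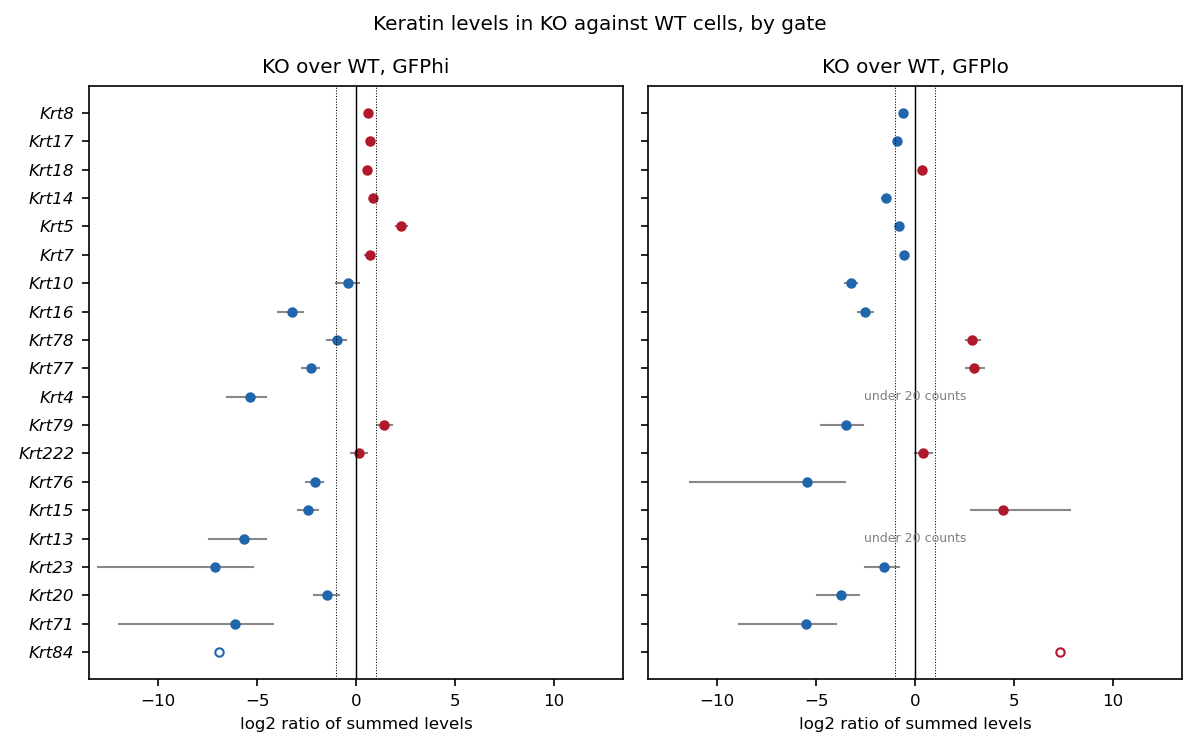
Log2 ratio of summed levels, KO over WT, in GFPhi (left) and GFPlo (right) for the 20 keratins with the most counts. Lines are 95% counting intervals, dotted lines mark 2-fold, red is higher and blue lower in KO, and open circles are members with 1 group at 0, drawn with 0.5 count added and no interval. The leading 6 lie right of 0 at high GFP and, except Krt18, left of 0 at low GFP.

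Counts of leukocyte genes also differed between the groups. The 27 leukocyte markers summed to 2269 CPM in KO GFPhi and 11300 CPM in WT GFPhi, and to 5514 CPM in KO GFPlo and 16895 CPM in WT GFPlo, with the antibody genes Igj at 5301 CPM in WT GFPhi and Ighm at 8440 CPM in WT GFPlo. A single cell held 74.6% of the leukocyte sum in WT GFPlo and 31.3% of that in WT GFPhi. The median cell had 2049 CPM in KO GFPhi and 2776 in WT GFPhi, and 2373 in KO GFPlo and 1957 in WT GFPlo. At low GFP the sum was lower in KO on the second date (6823 CPM, against 31035 in WT) and higher in KO on the first (3256, against 1658). Of the list's defining members, Ptprc (CD45) had 4.32 CPM in KO GFPhi and 64.0 in WT GFPhi, and 101 in KO GFPlo and 49.1 in WT GFPlo, and Cd3e was below 1 CPM in each group. With Cd52, Laptm5 and Rac2, found in over 150 cells, left out of the list, its counts exceeded those of epithelial markers other than keratins in 6 KO GFPhi, 32 WT GFPhi, 23 KO GFPlo and 12 WT GFPlo wells. Without these wells, summed keratins were at 4821 CPM in KO GFPhi and 4763 in WT GFPhi, a log2 ratio of 0.02, and at 5424 CPM in KO GFPlo and 6925 in WT GFPlo, a log2 ratio of −0.35. This narrower rule was chosen after seeing the data. With the whole list, which marks 28 KO GFPhi, 49 WT GFPhi, 38 KO GFPlo and 20 WT GFPlo wells, the remaining wells gave 5296 CPM in KO GFPhi and 3988 in WT GFPhi (log2 ratio 0.41), and 7082 CPM in KO GFPlo and 7004 in WT GFPlo (0.016). The difference at high GFP was thus near 0 by the narrower rule and the one at low GFP near 0 by the whole list. By the narrower rule, Krt5 kept a log2 ratio of 1.82 at high GFP, and Krt14 one of 1.28, whereas Krt8 was at 0.11, Krt18 at 0.17 and Krt7 at 0.01. By the whole list, the log2 ratios at high GFP were 2.04 for Krt5, 2.90 for Krt14, 1.33 for Krt17, 0.42 for Krt18, −0.040 for Krt8 and −0.40 for Krt7. The part of leukocyte transcripts in the other differences was not tested. Fibroblast and endothelial markers summed to 101 to 157 CPM in the 4 groups.

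Keratin levels also differed between the sort dates. Krt5 had 277 CPM in KO GFPhi on the second date and 0 on the first, 60.8 and 0.857 in WT GFPhi, 464 and 20.6 in KO GFPlo, and 979.9 and 44.1 in WT GFPlo. It was counted in 20 of 39, 19 of 38, 24 of 30 and 20 of 21 cells of these groups on the second date, and in 0 of 9, 1 of 23, 3 of 22 and 5 of 18 on the first. Krt7 was 4.98 to 16.9 times and Krt14 1.36 to 6.85 times as high on the second date in the 4 groups. Krt8 and Krt18 were lower on the second date in each group, with second-over-first ratios of 0.439 to 0.621 for Krt8 and 0.339 to 0.552 for Krt18. Krt17 had no common direction, with ratios of 2.48 in KO GFPhi, 0.563 in WT GFPhi, 1.26 in KO GFPlo and 1.74 in WT GFPlo.

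The same held within each kind of reverse transcription primer. Krt5 had 277 CPM on the second and 18.1 CPM on the first date with primers called ls, and 570.4 and 0 CPM with those called umi, while Krt8 had 1031 and 1921 CPM with ls and 1075 and 1897 CPM with umi primers. Within dates, the log2 ratio of KO over WT at high GFP was 0.69 on the second and 0.61 on the first date for Krt8, and 0.57 and 0.74 for Krt18. For Krt14 it was 1.10 and −1.21, for Krt17 1.30 and −0.83, and for Krt7 0.68 and −1.04, so these members differed in direction between dates. Krt5 had a log2 ratio of 2.18 on the second date, and its single count in GFPhi cells of the first date gave no ratio there. At low GFP, each of the leading 6 kept its direction on both dates. The labels do not say what else differed between the dates.

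**Figure D5:**
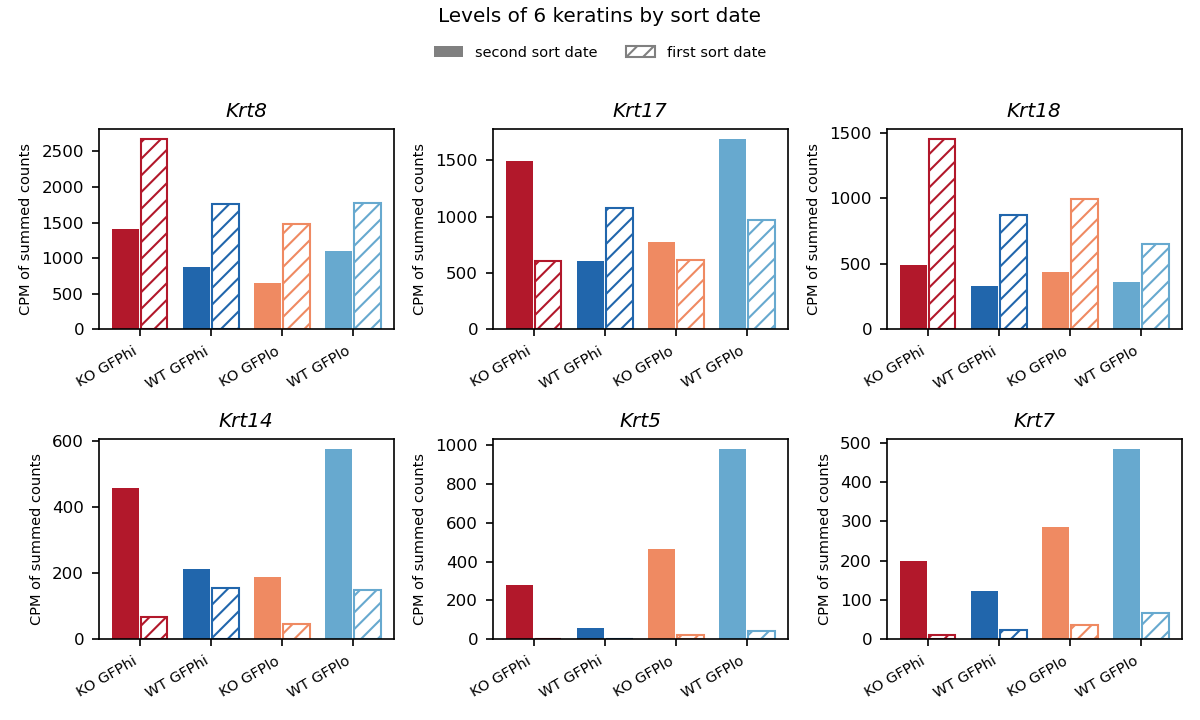
Bars give CPM of summed counts on the second (filled) and first (hatched) sort date for the 6 keratins with the most counts, by group. In the 4 groups Krt5, Krt7 and Krt14 were higher and Krt8 and Krt18 lower on the second date; Krt17 differed in direction between groups.

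The last comparison sets GFPhi against GFPlo cells, where GFP reports the activity of the Aire gene. In WT, Krt5, Krt7 and Krt14 were lower at high GFP, with Krt5 at 0.0768 of its GFPlo level (0.0640–0.0915), a 13.02-fold lower level, Krt7 at 0.319 (0.278–0.366) and Krt14 at 0.520 (0.469–0.576). Krt14 did not keep this on the first date alone (log2 ratio 0.049) or with ls primers alone (0.086), and basal keratins as a sum stood at 217 CPM in GFPhi and 196 CPM in GFPlo on the first date (ratio 1.11, 0.920–1.34). Without leukocyte-marked wells, the log2 ratio was −0.18 for Krt7, −2.73 for Krt5 and −2.58 for Krt14. Over all cells, Krt8 was at 0.817 of its GFPlo level (0.780–0.856) and Krt18 at 1.02 (0.949–1.10). Of the 11 pools with both WT groups, Krt5 was lower in GFPhi in 9 and equal in the other two, Krt7 lower in 9, Krt14 and Krt17 in 8 each, Krt8 in 6 and Krt18 in 4. Among 26 members with at least 20 counts, 10 were at least 2-fold higher and 8 at least 2-fold lower in GFPhi, against 25.7% and 23.6% of all genes. The higher ones included Krt4 (54.1-fold, 24.7–148), Krt13 (20.99-fold, but with a log2 ratio of 0.27 without the pool of its highest cell), Krt15 (82.5-fold, on 2 GFPlo counts), Krt77 (4.51-fold) and Krt84 (at least 14.99-fold), and the lower ones Krt10, Krt16, Krt20 and Krt79 beside Krt5 and Krt7. On the first date alone, Krt77 was lower in GFPhi (log2 ratio −5.02) and Krt16 higher (4.86), and on the second alone Krt10 (5.97) and Krt79 (2.57) were higher. Krt4, Krt13 and Krt84 had under 20 counts over the WT groups without leukocyte-marked wells and gave no ratio there.

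In KO, Krt5 was at 0.658 of its GFPlo level in GFPhi (0.586–0.740) and Krt7 at 0.748 (0.649–0.862), while Krt14 was 2.56-fold (2.22–2.95), Krt8 1.86-fold (1.76–1.96), Krt17 1.73-fold (1.63–1.85) and Krt18 1.19-fold (1.11–1.27) higher in GFPhi. Without leukocyte-marked wells, the log2 ratio was 1.12 for Krt14, 0.22 for Krt8, 0.22 for Krt17 and −0.34 for Krt18. Krt5 and Krt7 stayed lower in GFPhi there (−0.64 and −0.89). Krt18 was also at −0.15 as a mean over cells, and Krt17 at −0.029 on the first date alone. Among 19 members with at least 20 counts, 6 were at least 2-fold higher and 6 at least 2-fold lower, against 23.6% and 24.4% of all genes. Krt79 was 13.3-fold higher in GFPhi (6.86–29.5), and Krt78 14.3-fold (10.8–19.2) and Krt77 8.70-fold (6.54–11.8) lower. The keratins of mucosa and cornea were higher in GFPhi in both genotypes, 6.23-fold in KO and 7.53-fold in WT as a sum. In WT this held on the second date, whereas on the first the sum stood at 0.506 of its GFPlo level (0.353–0.719). These comparisons share their groups with those of KO against WT and are not independent of them.

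Across cells, Krt8 with Krt18, and Krt5, Krt7, Krt14 and Krt17 among themselves, had the higher correlations. The Spearman correlation of per-cell CPM over the 200 cells was 0.58 between Krt8 and Krt18. It was 0.62 between Krt5 and Krt7, 0.61 between Krt17 and Krt7, 0.55 between Krt17 and Krt14, 0.52 between Krt17 and Krt5, 0.50 between Krt14 and Krt5 and 0.44 between Krt14 and Krt7. Over all cells, the other pairs ran from −0.19 (Krt18 and Krt5) to 0.14 (Krt8 and Krt17). Within dates, Krt8 and Krt18 had 0.56 on the second (128 cells) and 0.54 on the first (72 cells), and Krt5 and Krt7 had 0.54 and 0.48. Krt8 with Krt5 had −0.03 and −0.06, so the negative value over all cells was nearer 0 within dates. On the first date the 2 sets overlapped, with Krt8 and Krt17 at 0.36, against 0.35 for Krt17 and Krt14, 0.30 for Krt17 and Krt5, 0.26 for Krt14 and Krt5 and 0.24 for Krt14 and Krt7. Cells of a pool share a library and a date, and these correlations are descriptions with no test.

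Co-detection is read against how often a keratin was counted in cells without Krt5. Krt17 was counted in all 92 cells with Krt5 and in 85.2% of the 108 without it, Krt14 in 84.8% and 48.1%, and Krt7 in 83.7% and 34.3%. Krt8 was counted in 97.8% and 97.2%. After thinning to 10000 counts, 66 of 67 cells with Krt5 had Krt17, 49 had Krt14 and 53 had Krt7, against 78.6%, 45.5% and 22.3% of the 112 cells without it. None of these shares was split by sort date. In each group Krt5 was counted in a larger share of cells on the second date, when Krt7 and Krt14 were also higher. The part of the date in the co-detection was not tested. Among the rare type II keratins overlap was partial, with 13 of the 33 cells with Krt78 also holding Krt79 and 12 of the 25 with Krt76 holding Krt77.

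Genes that work with keratins were described for comparison; their counts of 2-fold differences stand beside the 19.6% higher and 27.3% lower of all genes at high GFP, and 21.5% and 26.6% at low GFP. Of the 16 genes of desmosomes and keratin linkers, 1 was at least 2-fold higher and 3 lower in KO than in WT GFPhi among 12 with at least 20 counts, with a median log2 ratio of −0.02. At low GFP 0 were higher and 3 lower of 13, with a median of −0.32. Dsp, which ties keratin filaments to desmosomes, had 157 CPM in KO GFPhi and 65.7 in WT GFPhi, and 309 in KO GFPlo and 374 in WT GFPlo. Dsg2, a desmosomal cadherin, had 215 and 209.9 CPM in KO and WT GFPhi and 188 and 298 CPM in KO and WT GFPlo. Of 9 hemidesmosome genes, each with at least 20 counts in both gates, 0 were higher and 2 lower in KO GFPhi, and 0 higher and 3 lower in KO GFPlo. Itga6, a laminin receptor chain, had 537 and 304 CPM in KO and WT GFPhi and 374 and 450.3 CPM in KO and WT GFPlo, while Dst, which anchors filaments, had 232 and 254 CPM in KO and WT GFPhi and 208 and 171 CPM in KO and WT GFPlo.

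Of 16 other intermediate filament genes, 4 were at least 2-fold higher and 4 lower in KO GFPhi, and 4 higher and 3 lower in KO GFPlo, of 10 with at least 20 counts in each gate. Vim, the filament of mesenchymal cells and leukocytes, had 587 and 516 CPM in KO and WT GFPhi and 1319 and 495 CPM in KO and WT GFPlo. The nuclear lamin Lmna had 126 and 317 CPM in KO and WT GFPhi and 172 and 265 CPM in KO and WT GFPlo. Of 16 regulators of keratinocytes, 5 were higher and 3 lower in KO GFPhi of 15 counted, and 1 higher and 5 lower in KO GFPlo of 14. Klf4, a factor of the skin barrier, had 16.9 and 48.4 CPM in KO and WT GFPhi and 115 and 128 CPM in KO and WT GFPlo, and Ehf, an epithelial ETS factor, had 81.3 and 60.6 CPM in KO and WT GFPhi and 40.1 and 77.9 CPM in KO and WT GFPlo.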

How the data were processed

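Whole-number counts per gene and cell were used as deposited by the authors, without normalization. The submitters' processing notes name the mouse build mm10 together with HTSeq, SAMtools 0.1.19, Picard 1.79, TopHat2 and TopHat, without saying what each did or whether strand was used. Per the labels' protocols, reverse transcription started from oligo-dT adapters and amplification was by in vitro transcription. A cell's total exceeded its deposited count of identifiers in 40 cells, so counts were treated as tags and not as molecules. Per the file headers, the deposited metadata also hold flow cytometer intensity per well and a sort date. Neither a cell filter nor a doublet caller was applied to the 200 cells.

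Counts were summed over a group and divided by its total (CPM). Levels carry exact Poisson, ratios exact conditional binomial and shares exact binomial 95% intervals, which cover counting error only. For log2 ratios, both sums were raised by 0.5 count. A difference counted as 2-fold from a log2 ratio of 1 with at least 20 counts over the 2 groups, and a group at 0 was set at 3 counts for a bound. Each cell was thinned once to 10000 counts for shares. The calculation recovered known folds in simulated group sums. These were drawn with counting error alone and no variation between cells, so they check the arithmetic and not the spread among cells. Alternatives were each sort date, each of 12 pools left out, each primer kind, wells whose leukocyte counts exceeded other epithelial counts left out (also by a narrower rule chosen after seeing the data), the mean over cells, TMM scaling (edgeR 4.0.16 in R 4.3.3), the highest cell left out, cells under 10000 counts left out, and other count minimums. Sums and intervals came from scipy 1.17.1, pandas 2.3.3 and numpy 2.4.6 under Python 3.11.15, and plots from matplotlib 3.10.9. Positions and exon lengths came from the GENCODE annotation of GRCm38, the same build as mm10, and promoters from RefSeq on GRCm38.p6.

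The members, classes and lists were chosen with earlier results of these data known. Values in all groups are given for the 20 keratins with the most counts, a range for the rest, and the pair with the most counts of each other list described.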

Additional observations from a re-analysis of the deposited data

Results flagged for a closer look

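Krt8 differed in direction between the gates on both sort dates. Its log2 ratio of KO over WT was 0.69 on the second date and 0.61 on the first in GFPhi cells, and −0.77 on the second date and −0.27 on the first in GFPlo cells. Each value comes from 1 sum of cells per genotype, gate and date, and the difference between the gates was not tested. Over both dates, the ratio was 0.11 in GFPhi and −0.34 in GFPlo without the wells of the narrower leukocyte rule. Without all leukocyte-marked wells it was −0.040 in GFPhi and −0.54 in GFPlo, so the directions no longer differed.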

How the results depend on the processing

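Values here are log2 ratios of summed keratins and numbers of keratins at least 2-fold higher or lower. Shares over all genes were computed for the main setting alone, so the numbers under alternatives have no background and are not read as results. With a minimum of 1 count, a few counts in 1 group against 0 in the other can pass 2-fold. Those numbers therefore follow largely from the minimum. For KO against WT in GFPhi the sum was 0.37, with 3 higher and 12 lower. It was 0.50 on the second date (5 higher) and 0.18 on the first (7 lower), 0.21 with ls and 1.01 with umi primers (7 higher, 6 lower), 0.41 without all leukocyte-marked wells (5 higher, 4 lower), 0.017 by the narrower rule, 0.27 as a mean over cells and 0.42 under TMM. With a minimum of 1 count 5 were higher.
For KO against WT in GFPlo the sum was −0.61, with 5 higher and 10 lower. It was −0.81 on the second and −0.35 on the first date (3 higher), −0.27 with ls and −1.93 with umi primers (0 higher, 6 lower), 0.016 without leukocyte-marked wells (6 lower), −0.35 by the narrower rule and −0.70 without the highest cell (5 lower). With a minimum of 1 count 10 were higher and 16 lower.
For GFPhi against GFPlo in KO the sum was 0.38, with 6 higher and 6 lower. It was 0.44 on the second and 0.31 on the first date (2 higher), 0.16 with ls and 1.38 with umi primers (0 lower), −0.42 without leukocyte-marked wells, −0.17 by the narrower rule, 0.16 as a mean over cells, 0.50 under TMM and 0.42 without the highest cell. With a minimum of 1 count 11 were higher and 13 lower.
For GFPhi against GFPlo in WT the sum was −0.61, with 10 higher and 8 lower. It was −0.87 on the second and −0.22 on the first date (6 higher), −0.32 with ls and −1.57 with umi primers (5 higher, 5 lower), −0.81 without leukocyte-marked wells (5 higher), −0.54 by the narrower rule and −0.72 as a mean over cells (5 higher). Without the highest cell 5 were lower.
With each pool left out in turn, the sums ran, in the order above, from 0.28 to 0.42, −0.76 to −0.51, 0.29 to 0.50 and −0.73 to −0.50. Higher keratins then numbered 2 to 5, 4 to 6, 5 to 6 and 7 to 11, and lower ones 9 to 13, 8 to 11, 5 to 8 and 6 to 10.
Of 1525 ratios of single keratins under the alternatives, 83 had another sign than reported, 22 of them for keratins at least 2-fold different and 61 for smaller differences. Among the 61, the log2 ratio of KO over WT in GFPhi reached −0.040 for Krt8, 5.08 for Krt10 and 5.39 for Krt78 without leukocyte-marked wells and −4.36 for Krt222 with umi primers. That of GFPhi over GFPlo reached 2.22 for Krt5 and 1.43 for Krt7 with umi primers and 4.13 for Krt15 without leukocyte-marked wells in KO, and 6.92 for Krt71 on the second date in WT. The 22 were as follows. For KO against WT in GFPhi, Krt76 was at 6.90 on the first date and Krt79 at −0.84 without leukocyte-marked wells. For KO against WT in GFPlo, Krt10 was at 6.92 on the second date, 0.18 without the highest cell and −3.77 to 0.68 with a pool left out (highest without pool 3), Krt77 at −4.24 on the first date and Krt16 at 2.97 with ls primers. For GFPhi against GFPlo in KO, Krt20 was at −0.11 on the second date, −0.088 with ls primers and −0.081 to 1.64 with a pool left out (lowest without pool 4). For GFPhi against GFPlo in WT, Krt10 (5.97), Krt79 (2.57) and Krt23 (−5.50) did so on the second date, and Krt16 (4.86), Krt77 (−5.02) and Krt76 (−7.47) on the first. There Krt16 was also at 2.59 with ls and Krt20 at 6.57 with umi primers, Krt79 at −2.64 to 0.39 with a pool left out (highest without pool 4), and Krt23 at −1.05 as a mean over cells, −1.49 without the highest cell and −2.24 to 2.00 with a pool left out (lowest without pool 5). The cause was not tested.
Pairs under 20 counts under an alternative gave no ratio. No paired analysis was possible because replicate numbers only name cells and each group counts as 1 sample. Library pools hold cells of several groups, and directions within pools are given as counts of pools. Some pools held very few cells of a group, so a direction can rest on individual cells, and pools are not replicates. No share over all genes was computed for these directions. Rare keratins rest on few cells. A cell at the median total of 29106.5 counts cannot show a level below about 1 tag, so a count of 0 there does not show absence.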

Other observations

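Library pool 11 held a large share of several keratins. Its 30 cells, 8 KO GFPhi, 8 WT GFPhi, 8 KO GFPlo and 6 WT GFPlo, held 32.2% of all counts but 91.4% of the counts of Krt13, 70.3% of Krt4, 63.2% of Krt15 and 63.0% of Krt19. Without each keratin's highest cell, the pool held 7 of 36 counts of Krt13 (19.4%), 42 of 167 of Krt15 (25.1%), 45.9% of Krt4 and 47.4% of Krt19. The mucosal keratin Krt4 was counted in 7 of these 30 cells, of 18 with Krt4 in all. Krt5 was counted in 25 of the 30 cells, and the pool held 55.4% of the counts of Krt7, 44.3% of Krt5 and 40.9% of Krt14. Krt16 was counted in 16 of the 30 cells, yet the pool held 18.97% of its counts.

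The keratin with the most counts in a cell differed between groups. Krt8 led in 33 of 48 KO GFPhi cells (68.8%) and 32 of 61 WT GFPhi cells (52.5%), and in 17 of 52 KO GFPlo (32.7%) and 15 of 39 WT GFPlo cells (38.5%). Krt17 led in 12 and 16 cells of KO and WT GFPhi and in 21 and 11 cells of KO and WT GFPlo.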
